A study of Mus musculus with 6 samples.

Results

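The 6 genes of antigen presentation on MHC class II that were followed here were H2-Aa, H2-Ab1, H2-Eb1, H2-DMa, Cd74 and Ciita, out of 18193 genes measured. They were taken by name from the deposited table as every probe set, the group of short probes that reads a transcript on an Affymetrix array, whose platform annotation gives exactly 1 gene symbol and that symbol is 1 of the 6. This found 14 probe sets of 34945 with a single symbol. Each gene was represented by its probe set with the highest mean over all 6 arrays, and the other 8 probe sets served as a check. The RNA came from the retinal pigment epithelium (RPE), the cell layer behind the photoreceptors, of BALB/c mice, an albino strain. All mice were kept in the dark for 1 week. The 3 dark-adapted samples came from mice without further treatment, and the 3 light-damaged samples from mice then put under 6000 lux of white fluorescent light for 1.5 h, with RPE taken 24 h afterwards. The labels give no age or genotype beyond the strain, and do not say whether a sample is 1 animal or a pool. P-values therefore cover the spread among these samples alone, and that spread may be technical.

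MHC class II molecules are pairs of an alpha and a beta chain that carry peptides from endosomes to the cell surface, where CD4 T cells read them. The invariant chain, encoded by Cd74, holds newly made class II pairs, steers them to endosomes and is cut down to a short piece that blocks the peptide groove. The H2-DM dimer removes that piece and edits which peptides bind. Ciita is the coactivator that switches the whole set on together, itself induced by interferon gamma in many cells and active without it in dendritic cells and B cells. In the eye, class II is known from macrophages, microglia and dendritic cells, and RPE cells can display it after exposure to interferon gamma. BALB/c mice carry both class II pairs of the mouse, I-A (H2-Aa with H2-Ab1) and I-E (H2-Eb1 with H2-Ea).

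Class II genes are switched on through a shared promoter module in which the X and Y boxes lie a short way before the start, and the windows before the start of members in the RefSeq promoter table (build GRCm38.p6, the C57BL/6J genome and not that of BALB/c) are shown so that this layout can be seen beside the values. The table held 3 of the 6 members. Each line gives the 250 bases before a start, on the gene's strand, with capitals marking ATTGG (the core of the Y box, an inverted CCAAT) and ACAGATG (a stretch of some X boxes), searched on both strands. For H2-DMa the table lists 2 starts.
H2-Aa, chr17:34287824-34288073, minus strand: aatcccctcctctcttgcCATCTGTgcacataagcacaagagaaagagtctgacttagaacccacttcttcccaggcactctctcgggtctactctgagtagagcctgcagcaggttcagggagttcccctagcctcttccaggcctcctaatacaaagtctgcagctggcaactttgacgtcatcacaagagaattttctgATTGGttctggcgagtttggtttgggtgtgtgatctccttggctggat
H2-Eb1, chr17:34305617-34305866, plus strand: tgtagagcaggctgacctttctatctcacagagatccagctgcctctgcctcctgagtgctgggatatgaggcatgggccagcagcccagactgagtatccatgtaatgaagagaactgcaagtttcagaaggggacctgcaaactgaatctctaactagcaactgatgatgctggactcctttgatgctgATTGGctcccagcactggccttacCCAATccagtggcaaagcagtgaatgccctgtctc
H2-DMa, upstream start, chr17:34122582-34122831, plus strand: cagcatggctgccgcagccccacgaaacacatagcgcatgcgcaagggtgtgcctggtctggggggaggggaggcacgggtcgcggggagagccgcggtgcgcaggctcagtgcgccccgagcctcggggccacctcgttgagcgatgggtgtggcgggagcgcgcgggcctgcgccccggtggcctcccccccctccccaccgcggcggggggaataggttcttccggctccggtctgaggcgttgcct
H2-DMa, downstream start, chr17:34125268-34125517, plus strand: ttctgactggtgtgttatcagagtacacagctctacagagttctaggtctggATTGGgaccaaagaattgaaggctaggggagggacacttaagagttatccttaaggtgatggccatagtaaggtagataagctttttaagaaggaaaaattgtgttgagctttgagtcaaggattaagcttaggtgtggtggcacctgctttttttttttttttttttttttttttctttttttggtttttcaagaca

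ATTGG on the gene's strand began 48 bases before the start of H2-Aa and 59 before that of H2-Eb1, which also had it on the opposite strand at 35. The upstream H2-DMa window did not hold it, and the downstream one held it at 198. These letters are common: 33.8% of the 32851 windows of the same length in the table held ATTGG and 4.15% held ACAGATG, which among these 4 windows was found in that of H2-Aa, on the opposite strand at 232 bases. A match is a description of the letters only. X boxes spelled with other letters were left unmarked, so a window without ACAGATG may still hold an X box. Whether the match in H2-Aa lies in an X box was not tested.

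In both groups the replicate 1 array differed from the other arrays. The first principal component, with 74.4% of the variance, placed these 2 at -38.60 (dark-adapted) and -68.73 (light-damaged) and the other 4 between 18.76 and 34.02. The Gapdh control probe sets, whose 3′ reading exceeds the 5′ one more when RNA is degraded, were 2.45 and 2.48 apart on the log2 scale in these 2 arrays against 1.54 to 1.80 in the others. All 6 class II genes were highest in the replicate 1 array of each group. Over all genes, 40.0% had replicate 1 highest in both groups. Each member is therefore given per array and again without both replicate 1 arrays. The fit without them uses only the other 4 arrays, so its standard errors lean more on the spread that limma pools over all genes. A smaller standard error or p-value in it is therefore not firmer evidence than the fit to all 6. Whether RNA quality has a part in the class II levels of the replicate 1 arrays was not tested. The samples held transcripts of the RPE at high levels, with log2 values of 14.08 for Rpe65 and 14.71 for Ttr averaged over the arrays, and also photoreceptor transcripts such as Gnat1 and Sag, both at 14.41.

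H2-DMa, the alpha chain of the peptide editor, rose 2.25-fold in light-damaged RPE and was the 1 gene of the 6 to pass. The invariant chain gene Cd74 and the I-A beta chain gene H2-Ab1 had smaller differences, 1.49-fold and 1.33-fold, that were above 0 in 3 of 3 pairs and did not pass. The I-A alpha chain gene H2-Aa, the I-E beta chain gene H2-Eb1 and the coactivator gene Ciita differed by 1.23-fold or less. Each difference is the light-damaged less the dark-adapted log2 value with its standard error, from limma with the replicate number as a block and n = 3 per group, and a gene was called at a Benjamini-Hochberg adjusted p under 0.05 over all 18193 genes. Of all genes, 4.99% were called and 3.07% were called higher, against 1 of the 6 members. The median difference of the members was 0.36, with all 6 above 0, while the median over all genes was -9.4e-05 with 49.9% above 0. An unadjusted p under 0.05 was reached by 4 members, H2-DMa, Cd74, H2-Ab1 and H2-Aa, all higher, against 9.48% of all genes that were higher at that level.

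**Figure D1:**
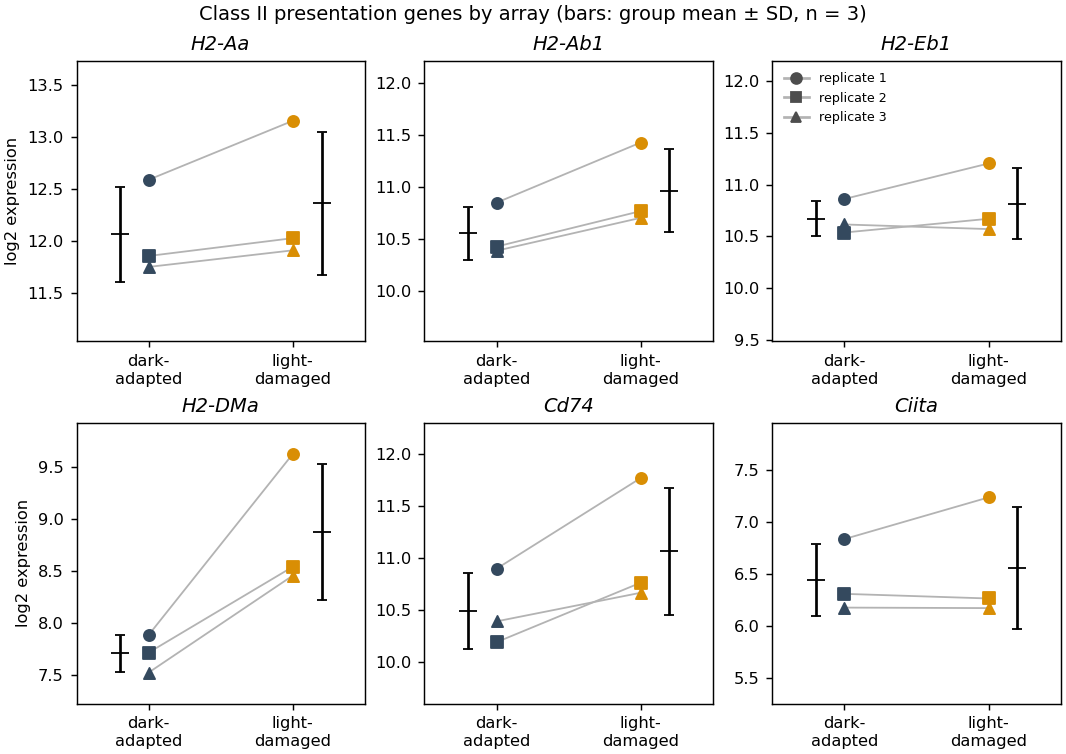
Log2 expression of the 6 class II presentation genes on each array, with a line joining arrays of the same replicate number and black bars for the group mean ± SD (n = 3). Every vertical axis spans the same log2 range. For H2-DMa the lowest light-damaged array, at 8.46, lies above the highest dark-adapted one, at 7.88, whereas for the other 5 genes dark-adapted replicate 1 lies above light-damaged replicates 2 and 3.

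H2-DMa encodes the alpha chain of H2-DM, which catalyses the exchange of peptides on class II. Its log2 values were 7.88, 7.72 and 7.52 in dark-adapted replicates 1, 2 and 3 and 9.63, 8.54 and 8.46 in the light-damaged ones. All light-damaged arrays lay above all dark-adapted arrays, with light-damaged replicate 1 far above the rest. Such separated groups were seen for 10.3% of all genes and, among the 6 members, for H2-DMa. The group means were 7.71 ± 0.18 (SD, n = 3) and 8.88 ± 0.65, a difference of 1.17 ± 0.18 (limma adjusted p = 0.0207). The difference was 1.74, 0.83 and 0.93 in pairs 1, 2 and 3, and in each pair it was larger than that of every other member, although a difference between members was not tested. Without both replicate 1 arrays it was 0.88 ± 0.09 (limma adjusted p = 0.0040), in a fit to 4 arrays. The call was lost without pair 3, at 1.28 (limma adjusted p = 0.0513), and without the replicate block (limma adjusted p = 0.48, unadjusted p = 0.0113), where 0.0495% of all genes and 0 of the 6 members were called. Over all genes, 0.539% had a larger difference than H2-DMa.

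Cd74 encodes the invariant chain, which also acts at the cell surface as a receptor for the cytokine MIF. It was read by a single probe set, at 10.90, 10.19 and 10.39 in dark-adapted replicates 1, 2 and 3 and 11.77, 10.76 and 10.67 in the light-damaged ones. Within each replicate number the light-damaged array was higher, but the groups overlapped because dark-adapted replicate 1 lay above light-damaged replicates 2 and 3. The difference was 0.57 ± 0.13 (limma adjusted p = 0.0583), with a 95% interval of 0.27 to 0.88. The intervals given for members are not adjusted for the number of genes, so an interval can exclude 0 for a gene that did not pass. Pairs 1, 2 and 3 gave 0.87, 0.57 and 0.28. Without both replicate 1 arrays it was 0.42 ± 0.11 (limma adjusted p = 0.0707). Cd74 was therefore close to the threshold on the far side of it, both with and without those arrays.

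The I-A pair is made of the products of H2-Aa and H2-Ab1. H2-Ab1, the beta chain, had log2 values of 10.85, 10.43 and 10.39 in dark-adapted replicates 1, 2 and 3 and 11.43, 10.77 and 10.70 in the light-damaged ones. Its difference was 0.41 ± 0.10 (limma adjusted p = 0.0675, 95% interval 0.18 to 0.64), and it was 0.58, 0.34 and 0.32 by pair. The light-damaged array was higher in each pair by a similar amount in pairs 2 and 3, and the groups overlapped through dark-adapted replicate 1. H2-Aa, the alpha chain, had values of 12.59, 11.86 and 11.75 in the dark-adapted and 13.16, 12.03 and 11.91 in the light-damaged arrays. Its difference was 0.30 ± 0.11 (limma adjusted p = 0.22, 95% interval 0.03 to 0.57). Most of the H2-Aa difference was in pair 1, at 0.57 against 0.17 and 0.16 in pairs 2 and 3. Without both replicate 1 arrays H2-Ab1 differed by 0.33 ± 0.09 (limma adjusted p = 0.0912) and H2-Aa by 0.17 ± 0.09 (limma adjusted p = 0.37).

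H2-Eb1 encodes the beta chain of I-E. Its log2 values were 10.86, 10.54 and 10.62 in dark-adapted replicates 1, 2 and 3 and 11.20, 10.67 and 10.57 in the light-damaged ones. The groups overlapped, and pair 3 went the other way, the pairs giving 0.34, 0.13 and -0.04. The difference was 0.14 ± 0.10 (limma adjusted p = 0.55), with a 95% interval of -0.11 to 0.39, so a 1.31-fold rise and a small fall both lie within it. Without both replicate 1 arrays it was 0.04 ± 0.10 (limma adjusted p = 0.87). H2-Ea, which encodes the alpha chain of the same pair and was not among the 6, had a difference of 0.10 ± 0.11 (limma adjusted p = 0.72), while its 2 dimmer probe sets were below 0, at -0.078 and -0.045.

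Ciita, the coactivator of the class II genes, had log2 values of 6.84, 6.31 and 6.18 in dark-adapted replicates 1, 2 and 3 and 7.24, 6.27 and 6.17 in the light-damaged ones. Replicates 2 and 3 were nearly level between the groups, and the difference was carried by replicate 1, the pairs giving 0.40, -0.045 and -0.0049. The difference was 0.12 ± 0.12 (limma adjusted p = 0.67), with a 95% interval of -0.16 to 0.39. Without both replicate 1 arrays its sign turned, to -0.025 ± 0.092 (limma adjusted p = 0.93). RMA, the method behind the deposited values, compresses differences near background, and the table carries no detection calls, so how far the dim Ciita probe sets could show a change is not known.

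Pair 1 gave the largest difference for all 6 members, which over all genes was so for 37.3%. In total 15 of the 18 pair differences were above 0. A difference above 0 in 3 of 3 pairs was seen for 4 members, H2-DMa, Cd74, H2-Ab1 and H2-Aa, against 19.9% of all genes. As a description over the 6 arrays, Pearson's r between members ran from 0.65 (H2-DMa with Ciita) to 0.99 (H2-Ab1 with Cd74), with a median of 0.93 over the 15 pairs of genes. These values share the 2 replicate 1 arrays that stood apart. Without them, over 4 arrays, H2-DMa with H2-Ab1 gave 0.995 and H2-Ab1 with Cd74 0.92, while Ciita gave -0.36 to 0.36 with the other 5. H2-Eb1 gave 0.40 to 0.69 with H2-Aa, H2-Ab1, H2-DMa and Cd74.

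All 8 other probe sets of the members also had a difference above 0, from 0.07 to 0.67, and in a fit over all 34945 probe sets, of which 3.77% were called, none of the 8 was called by limma, 6 having an unadjusted p under 0.05. The second probe set of H2-DMa, an x_at set that can bind related transcripts, read 6.80, 6.36 and 6.23 in dark-adapted replicates 1, 2 and 3 and 7.93, 6.74 and 6.74 in the light-damaged ones. It was higher in 3 of 3 pairs, with overlapping groups, at 0.67 ± 0.15 (limma adjusted p = 0.0651). The brightest probe set of H2-Aa was an x_at set too, so the same limit holds for it. The 2 other probe sets of H2-Ab1 gave 0.52 ± 0.12 and 0.43 ± 0.11, near the 0.41 of the brightest, and in both the light-damaged arrays lay above all dark-adapted ones. The 3 others of H2-Aa gave 0.25 ± 0.09, 0.28 ± 0.09 and 0.52 ± 0.22. For the dimmest of these the pair differences were 1.25, 0.20 and 0.10, so that value rests on replicate 1. The 2 others of Ciita gave 0.17 ± 0.09 and 0.07 ± 0.09, and H2-Eb1 and Cd74 had a single probe set each. Whether the probes match the class II alleles of BALB/c, which are highly variable between strains, was not tested.

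**Figure D2:**
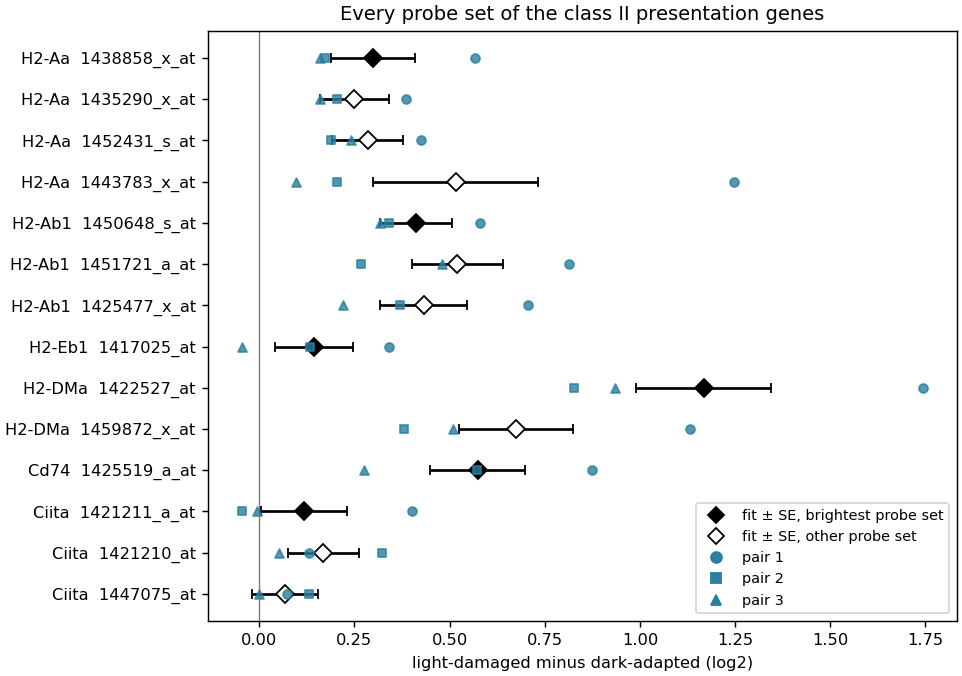
Light-damaged minus dark-adapted difference on the log2 scale for each of the 14 probe sets of the 6 genes, as the fitted value ± standard error (diamonds, filled for the brightest probe set of a gene) and as the difference in each pair of arrays (blue marks). All 14 fitted values lie above 0, those of H2-DMa at 1.17 and 0.67, and pair 1 lies farthest right except for 2 dim probe sets of Ciita.

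The genes that work with class II were followed as lists, and of 59 measured genes in all pathway lists 6 rose and none fell (10.2% called, against 4.99% of all genes), with a median difference of 0.05. Limma called 0 of these 59 without pair 3, with 7 at an unadjusted p under 0.05, and 0 without the replicate block, with 3 at that level. Of 5 other class II genes none passed, and the median was -0.01. The nearest was H2-DMb2, a beta chain partner of H2-DMa in H2-DM, at 0.39 ± 0.10 (limma adjusted p = 0.0807), which was higher in 3 of 3 pairs with values of 7.83, 7.54 and 7.50 in dark-adapted and 8.39, 7.85 and 7.80 in light-damaged replicates 1, 2 and 3. Its brightest probe set was an x_at set, and its 2 dimmer ones gave -0.13 and 0.15. H2-DMb1, the other beta chain gene of H2-DM, was listed but was not among the 5 measured. H2-Oa and H2-Ob, whose products form the H2-O dimer that restrains H2-DM, both gave -0.01, and H2-Eb2 gave -0.06.

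Upstream of the class II genes, none of 13 factors that bind class II promoters or work with Ciita passed, with 2 of 13 above 0 and a median of -0.11. Rfx5, Rfxank and Rfxap, which together form the complex on the X box, gave -0.11, -0.10 and 0.10. Nfya, Nfyb and Nfyc, which form the factor on the Y box, gave 0.17, -0.27 and -0.22. Of 11 measured genes between interferon gamma and Ciita, Ptpn2, a phosphatase that dampens cytokine signalling, rose 1.59-fold (0.67 ± 0.10, limma adjusted p = 0.0202). Its log2 values were 11.19, 12.04 and 11.99 in dark-adapted replicates 1, 2 and 3 and 12.04, 12.52 and 12.67 in the light-damaged ones. Its groups were separated by almost nothing, dark-adapted replicate 2 and light-damaged replicate 1 both reading 12.04, while the light-damaged array was higher in 3 of 3 pairs. Of its 3 other probe sets 1 was called, at 0.73 ± 0.08 (limma adjusted p = 0.0086), and the others, at 0.73 ± 0.20 and 0.31 ± 0.11, were not (limma adjusted p = 0.11 and 0.20). The other 10 genes of the list did not pass: Ifng itself gave -0.15, the receptor genes Ifngr1 and Ifngr2 0.11 and 0.16, Jak1 and Jak2 -0.18 and 0.07, and Irf1, which acts on the Ciita promoter, 0.15 ± 0.13 (limma adjusted p = 0.62). Irf2 gave 0.28, Socs1 0.16, Usf1 0.10 and Pias1 -0.16.

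Downstream, in the endosome, 3 of 10 processing genes rose, against 3.07% of all genes, and as for the other pathway lists these calls were lost without pair 3 and without the replicate block. Ctsh, a cathepsin with aminopeptidase activity, rose 1.68-fold (0.75 ± 0.12, limma adjusted p = 0.0262), and Ifi30, the thiol reductase GILT that opens disulfide bonds of antigens, 1.57-fold (0.65 ± 0.09, limma adjusted p = 0.0166). Ctsz, a carboxypeptidase cathepsin, rose 1.40-fold (0.48 ± 0.10, limma adjusted p = 0.0439). For Ifi30 the arrays read 10.14, 9.58 and 9.78 in dark-adapted and 10.81, 10.36 and 10.30 in light-damaged replicates 1, 2 and 3. Its groups did not overlap, nor did those of Ctsh, while those of Ctsz did. Ctss, the cathepsin that makes the last cuts in the invariant chain in antigen-presenting cells, did not pass at 0.18 ± 0.12 (limma adjusted p = 0.49). Ctsl, Ctsb, Ctsd, Lgmn and Sppl2a gave 0.14, 0.35, -0.01, 0.11 and 0.01 and did not pass. Cst3 was lower in each pair, at -0.23 ± 0.10, and did not pass either (limma adjusted p = 0.26). The brightest probe set of Ctsh was an x_at set. Its second probe set gave 0.66 ± 0.15 and was not called in the fit over all probe sets (limma adjusted p = 0.0650). The other probe sets of Ctsz gave 0.48 and 0.49 and were called there (limma adjusted p = 0.0461 and 0.0371).

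Among 7 genes of surface trafficking and turnover none passed, with Marchf1, the ligase that sends class II from the surface to lysosomes, at 0.01 ± 0.17. Of 4 genes whose products partner the invariant chain at the surface, the hyaluronan receptor gene Cd44 rose 2.36-fold (1.24 ± 0.17, limma adjusted p = 0.0133), and Mif, the gene of the invariant chain's cytokine ligand, gave -0.08. The Cd44 groups overlapped, with light-damaged replicate 1 at 8.70 below dark-adapted replicates 2 and 3 at 9.39 and 8.91, although the light-damaged array was higher in each pair. The Cd44 probe sets disagreed in size, the others giving 1.34, 0.65 and 0.14. Of 7 costimulation, adhesion and checkpoint genes on presenting cells, the adhesion molecule gene Icam1 rose 2.02-fold (1.01 ± 0.15, limma adjusted p = 0.0178). Cd80, Cd86 and Cd40, the costimulators that accompany presentation to T cells, gave 0.08, 0.16 and 0.24 and did not pass. Cd4 and Lag3, T cell molecules that bind class II, gave 0.05 and -0.0018.

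**Figure D3:**
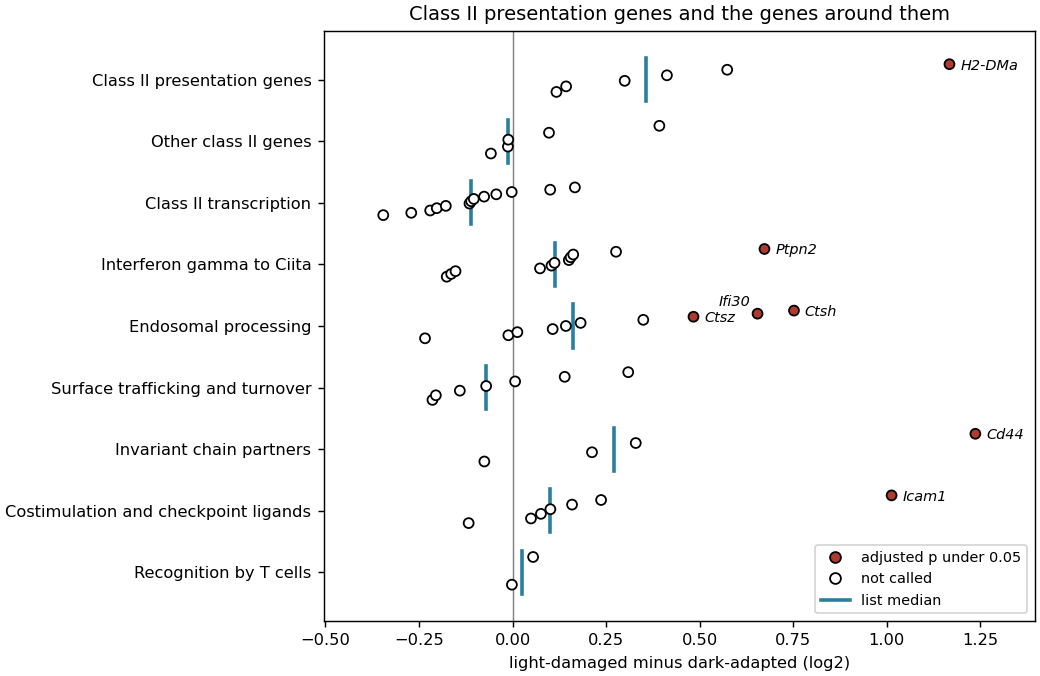
Light-damaged minus dark-adapted difference (log2) of every measured gene in the class II presentation set and in 8 lists of genes that work with it. Filled points passed an adjusted p under 0.05 and carry the gene name, and blue lines are list medians, which run from -0.11 for class II transcription to 0.36 for the class II presentation genes.

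Markers of cells that carry class II were measured beside the members. Of the 20 macrophage and microglia markers 17 were called higher and 0 lower (4.99% of all genes were called in either direction), with a median of 0.95, and the mean of their log2 values lay between 9.17 and 9.38 in dark-adapted and 10.04 and 10.22 in light-damaged arrays. The markers Csf1r, P2ry12 and Tmem119, the last 2 typical of resting microglia, gave -0.15, -0.34 and 0.03 and did not pass. Without both replicate 1 arrays 17 of the 20 were called, and without the replicate block limma called 0, with 13 at an unadjusted p under 0.05. Dendritic cell markers rose in 1 of 11 cases, Itgax, an integrin gene that macrophages also express, at 1.46-fold (0.54 ± 0.10, limma adjusted p = 0.0311), with a list mean of 7.47 to 7.59 in dark-adapted and 7.51 to 7.87 in light-damaged arrays. The dendritic cell median was 0.11. Of the 10 that did not pass, Clec10a, Fscn1, Flt3, Batf3, Xcr1 and Zbtb46 gave 0.37, 0.20, 0.18, 0.16, 0.11 and 0.09, Cd209a and Ccr7 0.03 and 0.0089, and Siglech and Dpp4 -0.22 and -0.26. None of 8 B cell markers passed (median -0.03, mean 6.80 to 7.12 in dark-adapted and 6.80 to 7.19 in light-damaged arrays), and none of 9 T and NK cell markers (median 0.08, mean 6.78 to 7.08 and 6.81 to 7.35). Of these 9, 8 were above 0. The nearest to the threshold was Nkg7, at 0.49 ± 0.11 (limma adjusted p = 0.0683) and higher in 3 of 3 pairs. No list has a marker at 0, since the values hold a background level.

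The neutrophil list rose in 2 of 8 cases and its mean was 7.24 to 7.53 in dark-adapted and 7.65 to 8.18 in light-damaged arrays, endothelial markers rose in 1 of 8 cases, and Müller glia markers rose in 2 and fell in 1 of 7. RPE markers fell in 1 of 13 cases, with all 13 below 0 and a median of -0.37, and photoreceptor markers fell in 7 of 13 cases, with all 13 below 0 and a median of -0.55. Over all genes 3.07% were called higher and 1.92% lower. Without the replicate block limma called 0 of the 49 genes of these 5 lists, with 12 at an unadjusted p under 0.05. Since these are bulk samples, more cells of a type and more RNA per cell cannot be told apart, nor can the cells in which the class II transcripts lay. The part of the marker shifts in the class II differences was not tested.

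**Figure D4:**
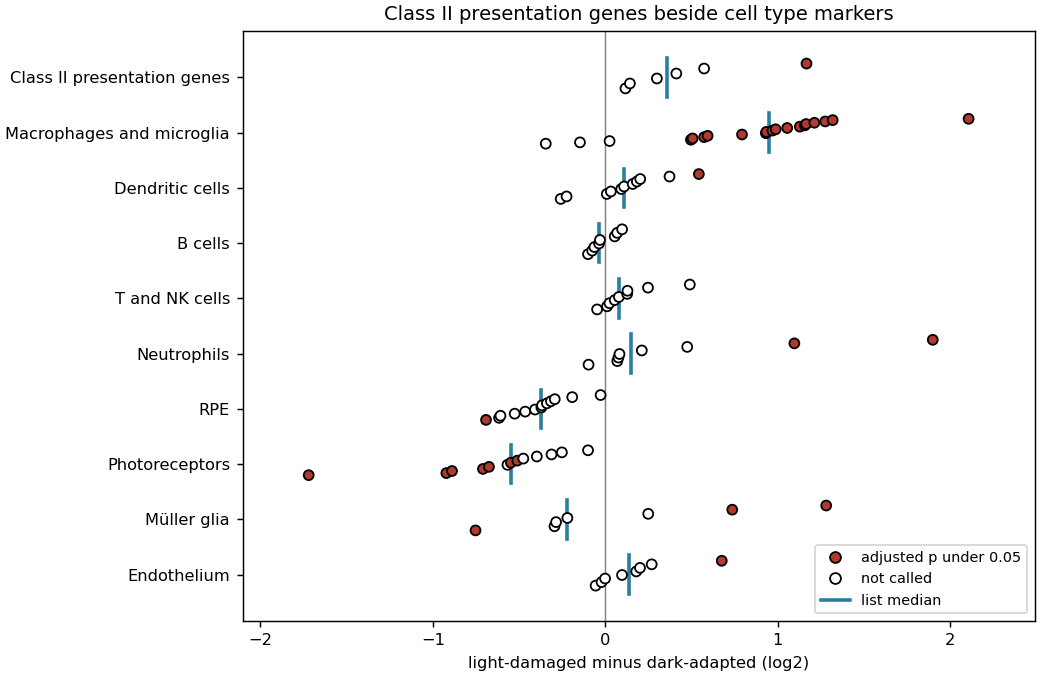
Light-damaged minus dark-adapted difference (log2) of the class II presentation genes and of 9 lists of cell type markers, 1 point per gene, filled where the adjusted p was under 0.05, with blue lines for list medians. The macrophage and microglia markers have the highest median, at 0.95, against 0.36 for the class II presentation genes, -0.03 for B cells and -0.55 for photoreceptors.

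The genes whose pattern over the 6 arrays was most like the mean of H2-Aa, H2-Ab1, H2-Eb1 and Cd74, which read 11.30, 10.75 and 10.79 in dark-adapted and 11.89, 11.06 and 10.96 in light-damaged replicates 1, 2 and 3, were Samhd1, Trim27, Adgre5, Slc29a3 and Aspscr1. They were the 5 with the highest Pearson's r among 4138 genes above the median level with an SD of at least 0.3, with r of 0.997, 0.996, 0.995, 0.995 and 0.995, a description over arrays in which the high replicate 1 level is shared. Samhd1 encodes an enzyme that breaks down nucleotide precursors and restricts viruses. Samhd1 read 9.98, 9.63 and 9.65 in dark-adapted and 10.49, 9.83 and 9.76 in light-damaged replicates 1, 2 and 3. Its difference was 0.27 ± 0.11 (limma adjusted p = 0.25). Slc29a3, a lysosomal nucleoside transporter gene, was the 1 of the 5 that was called, at 0.50 ± 0.10 (limma adjusted p = 0.0495).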

How the data were processed

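RNA of 6 RPE samples was measured on Affymetrix mouse arrays. The deposited values are log2 expression per probe set, made with RMA per the submitters' processing notes; no version or settings were given there. The log2 scale was read from the values, which span 3.72 to 14.82. Of 45101 probe sets, 64 controls were left out. Genes were named from the platform annotation and represented by the probe set of highest mean. The fit used limma 3.58.1 (R 4.3.3; lmFit and eBayes, two-sided) with the replicate number as a block, leaving 2 residual degrees of freedom, and Benjamini-Hochberg adjustment over 18193 genes. Scripts were tested on simulated data. What a replicate number shares is not in the labels. Numbers were treated as pairs by the rule that defined this set of genes. Same-numbered arrays deviated from their group means together (r across genes 0.89, 0.62 and 0.86, each over the bound of 0.1). That bound cannot decide on pairing, since arrays of unlike number passed it too. Dark-adapted replicate 2 and light-damaged replicate 3 gave 0.65, and dark-adapted replicate 3 and light-damaged replicate 2 gave 0.61. Replicate 1 accounts for much of this. The difference of replicate 3 less replicate 2, which leaves replicate 1 out, gave an r of 0.33 between the groups. The members and lists were chosen with earlier results of these data known. Named were all members, any measured gene of the class II, transcription and interferon gamma lists, and the called or lowest-p genes of other lists; further ones were named after their values were seen. The alternatives covered the block, left-out replicates, normalization, dim genes, a pseudocount of 16, probe set choice, limma settings and array weights. The number of arrays limits the precision.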

Additional observations from a re-analysis of the deposited data

How the results depend on the processing

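With the replicate number as a block 908 genes were called, against 9 without the replicate block, 1875 with array weights, and 228 to 1245 without 1 replicate number. Members called were 1, but 0 without the replicate block, 3 with array weights (H2-DMa, Cd74, H2-Ab1), 0 with the dimmest probe set and 0 or 1 without 1 replicate number. Pathway list genes called were 6, but 0 without the replicate block, 3 with the dimmest probe set and 0 to 8 without 1 replicate number. H2-DMa kept its direction under all 14 alternatives, from 0.67 to 1.34, and lost its call without the block (1.17, limma adjusted p = 0.48), with the dimmest probe set (0.67, limma adjusted p = 0.0528) and without replicate 3; without 1 replicate number it ran from 0.88 to 1.34. With array weights H2-Ab1 (0.35, limma adjusted p = 0.0301) and Cd74 (0.42, limma adjusted p = 0.0443) passed. Ciita was reversed without replicate 1, at -0.025 with the block (-0.025 to 0.20 over the replicate numbers left out) and at -0.025 without it, a setting chosen after seeing the data, and the filter on dim genes left it out. The cause of these changes was not tested. H2-Aa and H2-Eb1 kept direction and stayed uncalled under all 14. Leaving out 1 array of a pair leaves its partner without a contrast, so pairs were left out whole.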
